A study of Mus musculus with 10 samples.

Results

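The genes described here encode cholesterol exporters or transcription factors tied to sterols or retinoids: the exporters Abca1 and Abcg1, the liver X receptors (LXRs) Nr1h3 and Nr1h2, the retinoid X receptors (RXRs) Rxra and Rxrb, the retinoic acid receptor Rara, and Srebf1 and Srebf2, which encode the sterol regulatory element-binding proteins (SREBPs). They are 9 listed genes, and all probe sets that the platform annotation gives to 1 of them alone were taken, which were 14 of the 45037 on the array. Of these, 11 probe sets of 8 genes were bright enough to be tested, and no value is given for Nr1h2, for which 0 probe sets were matched. The genes were chosen in part on their measured genotype differences, with earlier results of these arrays known, so the genotype differences below describe them and are no independent evidence of a direction.

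The samples were invariant natural killer T (iNKT) cells, thymic T cells whose receptor recognises lipids on CD1d. There were 4 groups: Id3KO stage 1 (2 arrays), WT stage 1 (2 arrays), Id3KO stage 2 (3 arrays) and WT stage 2 (3 arrays). All mice were C57BL/6 animals aged 6 weeks, and Id3KO mice lack Id3, an inhibitor of the DNA binding of E proteins. The labels name neither the Id3 allele nor whether a sample pools several thymi. All groups were gated on tetramer binding without CD24 and NK1.1, and CD44 was absent at stage 1 and present at stage 2. The titles call the replicates biological.

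In animal cells generally, LXRs are switched on by oxysterols, bind DNA as heterodimers with an RXR, and raise the transcription of Abca1, Abcg1 and Srebf1. RXRs also pair with retinoic acid, vitamin D, thyroid hormone and peroxisome proliferator-activated receptors. SREBP2 drives genes of cholesterol synthesis when sterols are scarce, and SREBP1 drives genes of fatty acid synthesis. In T cells, LXR signalling is known to restrain proliferation by lowering cellular sterol.

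The promoters of Abca1 and Rxra are shown because these are the genes with the largest genotype differences of the set. The sequences are from RefSeq (build GRCm38.p6), cover the 250 bases before a start, and run 5′ to 3′ on the gene's strand. Capitals mark each E-box CANNTG, a general form that includes the sites of E proteins but is not particular to them. They also mark each AGGTCA on either strand, a core of nuclear receptor sites. The Abca1 window is chr4:53159896-53160145 on the minus strand, and the Rxra windows, for its 2 RefSeq starts, are chr2:27676951-27677200 and chr2:27709042-27709291 on the plus strand.
Abca1: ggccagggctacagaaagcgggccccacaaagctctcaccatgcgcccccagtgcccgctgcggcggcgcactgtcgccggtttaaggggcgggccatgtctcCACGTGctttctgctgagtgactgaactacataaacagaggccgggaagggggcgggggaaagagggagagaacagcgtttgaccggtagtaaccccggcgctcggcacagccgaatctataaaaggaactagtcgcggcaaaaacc
Rxra, first start: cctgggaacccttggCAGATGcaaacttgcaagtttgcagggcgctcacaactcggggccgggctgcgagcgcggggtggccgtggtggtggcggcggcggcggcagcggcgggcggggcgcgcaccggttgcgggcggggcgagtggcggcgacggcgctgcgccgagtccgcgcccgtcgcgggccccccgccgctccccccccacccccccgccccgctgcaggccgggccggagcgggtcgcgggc
Rxra, second start: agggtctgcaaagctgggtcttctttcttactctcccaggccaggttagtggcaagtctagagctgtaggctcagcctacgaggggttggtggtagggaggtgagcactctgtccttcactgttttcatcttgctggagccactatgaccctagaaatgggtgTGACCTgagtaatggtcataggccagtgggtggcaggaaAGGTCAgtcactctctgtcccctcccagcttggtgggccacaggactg
The Abca1 window held 1 E-box, CACGTG, between 147 and 142 bases before the start, and the first Rxra window held 1, CAGATG, between 235 and 230 bases before it. CANNTG was found in 66.2% of the 32851 RefSeq windows of the same length, and CACGTG in 6.02%. The forms CAGGTG and CAGCTG, found in 17.2% and 13% of all windows, were in neither the Abca1 window nor the Rxra windows. AGGTCA lay 2 times in the second Rxra window, between 87 and 82 bases before the start on the minus strand and between 48 and 43 on the plus strand, and 14% of all windows held it. A pair of AGGTCA hexamers in the same orientation and 4 bases apart (DR4, the spacing of LXR sites), with up to 1 mismatch in each, was in 0 of the 16 windows of these genes and in 1.48% of all windows. Hexamers with 2 mismatches were not counted. In the Abca1 window, TGACCG and TAACCC lie 4 bases apart, with 1 and 2 mismatches to AGGTCA on the minus strand. The same 2 hexamers lie 4 bases apart in a Srebf1 window. The 0 thus depends on the mismatches allowed and does not show that LXR sites are absent. These are matches of letters in a short window, and 0 matches say only that those letters are not in it. The table had entries for 8 of the 9 genes, and Abcg1 was the other.

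The deposited values were array intensities on a linear scale with medians of 54.8 to 55.5 per array, and differences were tested on log2 values with limma over all 25061 kept probe sets. A probe set was kept when it exceeded the median of the table, 55.1 or 5.78 on the log2 scale, on at least 2 arrays, and it is called where the limma p adjusted by Benjamini and Hochberg is under 0.05. Id3 itself had intensities of 63.4 and 65.4 on Id3KO stage 1 arrays against 1282 and 1289 on WT arrays, and at stage 2 of 54.2 to 69.8 on Id3KO arrays against 818.2 to 1065 on WT arrays. The T cell gene Cd3e and the iNKT factor Zbtb16 were above the filter level on all 10 arrays. Cd44 averaged 8.76 in Id3KO and 9.58 in WT cells at stage 2 (log2 intensity), and 7.51 in Id3KO and 7.50 in WT cells at stage 1. The intensities of Cd44 and Cd24a summed to 625, 320 and 555 on the Id3KO stage 2 arrays, against 694 to 919 on the WT arrays. At stage 1 they summed to 183 and 313 on the Id3KO and 250 and 269 on the WT arrays. Id3KO replicate 2 of stage 2 thus lay near the stage 1 arrays, and its part in the differences below was not tested. In bulk samples like these, fewer cells of a type and less RNA per cell cannot be told apart.

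Abca1, which loads cholesterol onto apolipoprotein A-I, was lower in Id3KO cells at both stages. At stage 1, its probe set 1421840_at had intensities of 63.4 and 61.6 on the Id3KO arrays, against 203 and 214 on the WT arrays. At stage 2 the intensities were 91.5, 43.1 and 77.9 on the Id3KO arrays, against 174, 183 and 252 on the WT arrays. All 5 Id3KO arrays lay below all 5 WT arrays (of all kept probe sets, 22.8% had every Id3KO array lower at stage 1 and 10.5% at stage 2), and Id3KO replicate 2 of stage 2 was the lowest and lay below the filter level. The Id3KO stage 1 readings were at the level of Id3 on the same arrays (63.4 and 65.4), so Abca1 is not shown to be above background there, and the folds are between intensities as read. The stage 1 difference was 3.33-fold (log2 -1.74 ± 0.31, SE, n = 2 against 2, limma adjusted p = 0.0498). The stage 2 difference was 2.97-fold (log2 -1.57 ± 0.26, SE, n = 3 against 3, limma adjusted p = 0.0119). The difference between the stages in the genotype effect was 0.17 on the log2 scale (95% interval -0.75 to 1.09).

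The stage 1 call of Abca1 was at the edge of the threshold and was lost in 13 of the 20 other fits, while its log2 difference ran between -1.77 and -1.70 in all of them. Leaving out a stage 1 array gave adjusted p values of 0.219 and 0.15 for Id3KO replicates 1 and 2, and of 0.253 and 0.207 for WT replicates 1 and 2. Leaving out a stage 2 array gave 0.0599 for Id3KO replicate 3, and 0.0705, 0.0942 and 0.0644 for WT replicates 1, 2 and 3. With the replicate number as a block it was 0.0696. The stage 2 call was lost in 1 fit, over the 6 stage 2 arrays alone (0.0506). The other probe sets of Abca1, 1421839_at and 1450392_at, were above the filter level on 0 arrays and were not tested.

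Rxra, the RXR that pairs with LXRs and RARs in many cell types, was lower in Id3KO cells at both stages on its probe set 1454773_at. The intensities at stage 1 were 107 and 103 on the Id3KO arrays, against 240 and 263 on the WT arrays. At stage 2 they were 95.8, 94.5 and 106 on the Id3KO arrays, against 201, 209 and 224 on the WT arrays. The genotypes did not overlap, and the highest Id3KO array had less signal than the lowest WT array of either stage. The difference was 2.39-fold at stage 1 (log2 -1.26 ± 0.10, SE, n = 2 against 2, limma adjusted p = 0.00251) and 2.14-fold at stage 2 (log2 -1.10 ± 0.08, SE, n = 3 against 3, limma adjusted p = 0.00045). The stage 2 call held in all 20 other fits, and the stage 1 call was lost in 1, over the 4 stage 1 arrays alone (0.0561).

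The call rests on 1 of the Rxra probe sets. On 1425762_a_at, where the genotypes overlapped at stage 1 but not at stage 2, the intensities were 71.2 and 77.0 on the Id3KO arrays of stage 1, against 73.3 and 89.3 on the WT arrays. At stage 2 they were 68.9, 75.3 and 77.2 on the Id3KO arrays, against 88.0, 78.3 and 79.8 on the WT arrays. Its log2 difference was -0.13 at stage 1 (95% interval -0.40 to 0.14, limma adjusted p = 0.802) and -0.15 at stage 2 (-0.37 to 0.07, adjusted p = 0.507). As read, these intervals do not hold the differences of 1454773_at (-1.26 at stage 1 and -1.10 at stage 2). This probe set was dim in every group, near the 54.2 to 69.8 that Id3 read on the Id3KO arrays. Whether a fall of the size seen on 1454773_at could show on it was not tested. The third probe set, 1430497_at, was above the filter level on 1 array and was not tested. Which transcripts each probe set binds was not analysed here.

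**Figure D1:**
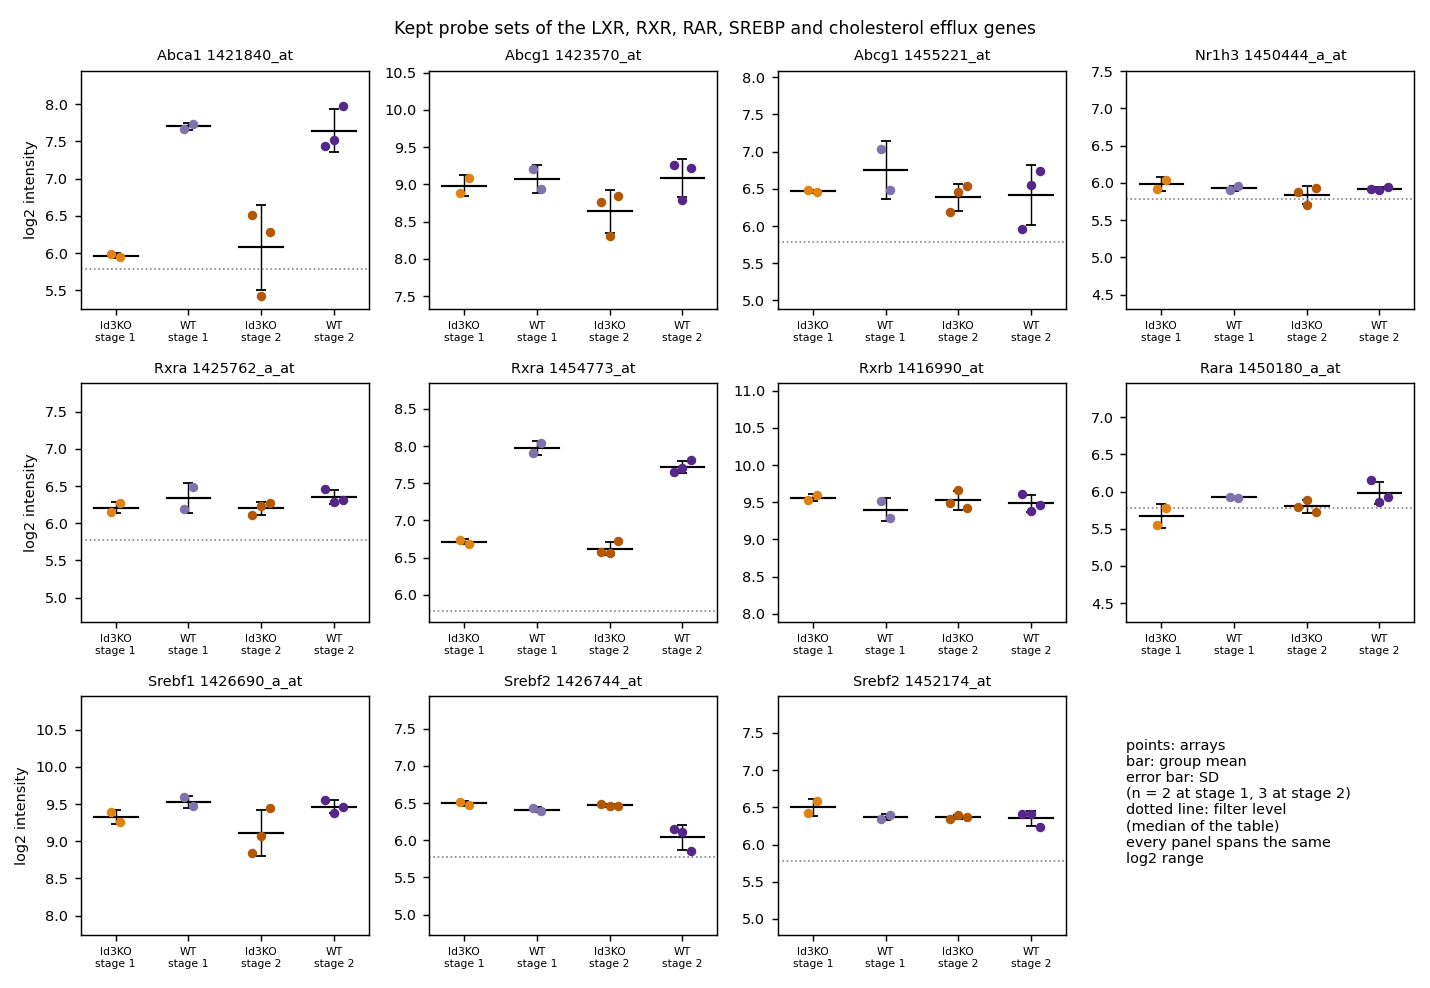
Log2 intensity of the 11 kept probe sets (vertical axis) in Id3KO stage 1, WT stage 1, Id3KO stage 2 and WT stage 2 cells (horizontal axis). Points are arrays, bars are group means with the SD, and every panel spans the same log2 range; Id3KO arrays lie below all WT arrays for Abca1 1421840_at and Rxra 1454773_at, while Rxrb 1416990_at stays between 9.29 and 9.66 on all 10 arrays.

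Abcg1, which passes cholesterol to high-density lipoprotein, was not called at either stage in the fit over all 10 arrays. On its probe set 1423570_at the intensities were 471 and 541 on the Id3KO stage 1 arrays, against 590 and 492 on the WT arrays. At stage 2 they were 433, 318 and 458 on the Id3KO arrays, against 611, 445 and 594 on the WT arrays. Id3KO and WT arrays overlapped at both stages. The log2 difference was -0.09 at stage 1 (95% interval -0.57 to 0.38, limma adjusted p = 0.944) and -0.45 at stage 2 (-0.84 to -0.06, adjusted p = 0.214). The second Abcg1 probe set, 1455221_at, stood at -0.29 (-0.88 to 0.30, adjusted p = 0.795) at stage 1 and at -0.03 (-0.51 to 0.45, adjusted p = 0.971) at stage 2. The second probe set is dim, and whether a large fall could show on it was not tested. In 1 of the 20 other fits, added after seeing the data (the replicate block with the Id3KO stage 1 numbers crossed), 1423570_at was called lower at stage 2 (adjusted p = 0.0365).

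Nr1h3, which encodes LXR alpha, was dim in all groups, with intensities of 52.0 to 66.0 over the 10 arrays. Its log2 difference was 0.05 at stage 1 (95% interval -0.17 to 0.27, limma adjusted p = 0.936) and -0.08 at stage 2 (-0.27 to 0.10, adjusted p = 0.704). A level so close to the filter level limits what a difference could show.

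Rxrb, the RXR found in most tissues, had intensities of 736 and 772 on the Id3KO stage 1 arrays, against 729 and 626 on the WT arrays. At stage 2 they were 722, 812 and 685 on the Id3KO arrays, against 781, 669 and 704 on the WT arrays, and the genotypes overlapped there. Its log2 difference was 0.16 at stage 1 (95% interval -0.12 to 0.43, limma adjusted p = 0.738) and 0.04 at stage 2 (-0.18 to 0.27, adjusted p = 0.904). Rara, a receptor for retinoic acid, was dim, with intensities of 47 and 55 on the Id3KO stage 1 arrays against 60.7 and 60.5 on the WT arrays. At stage 2 Rara stood at 55.4, 59.1 and 52.7 on the Id3KO arrays, against 71.1, 58.1 and 60.7 on the WT arrays. Its log2 difference was -0.25 (-0.53 to 0.02, adjusted p = 0.532) at stage 1 and -0.18 (-0.41 to 0.05, adjusted p = 0.427) at stage 2.

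Srebf1, a target of LXR and the driver of fatty acid synthesis genes, had intensities of 673 and 615 on the Id3KO stage 1 arrays, against 770 and 708 on the WT arrays. At stage 2 they were 457, 536 and 698 on the Id3KO arrays, against 754, 667 and 705 on the WT arrays. Replicate 3 of the Id3KO arrays lay among the WT arrays and the other 2 lay below them. The log2 difference was -0.20 (95% interval -0.59 to 0.20, limma adjusted p = 0.786) at stage 1 and -0.35 (-0.67 to -0.03, adjusted p = 0.251) at stage 2. Without Id3KO replicate 3 of stage 2 it was -0.52 with an adjusted p of 0.0385, the only other fit in which it was called.

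Srebf2, the driver of cholesterol synthesis genes, was called at stage 2 on 1 of its 2 probe sets. On 1426744_at the stage 2 intensities were 89.5, 88.0 and 88.0 on the Id3KO arrays, against 71.1, 69.3 and 57.7 on the WT arrays. At stage 1 they were 91.7 and 88.5 on the Id3KO arrays, against 86.3 and 84.0 on the WT arrays. The WT stage 2 arrays were thus the 3 lowest of the 10. They lay near the 54.2 to 69.8 that Id3 read on the Id3KO arrays, and so dim a level limits what a difference can show. The log2 difference was 0.43 ± 0.09 at stage 2 (SE, n = 3 against 3, limma adjusted p = 0.0307) and 0.08 (95% interval -0.16 to 0.32, adjusted p = 0.88) at stage 1. The difference between the stages, 0.35 (0.03 to 0.66), had an adjusted p of 0.698.

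The stage 2 call of this Srebf2 probe set was lost in 8 other fits. Its adjusted p was 0.0538 without either WT stage 1 array, 0.0635 and 0.0710 without WT replicates 2 and 3 of stage 2, and 0.0815, 0.0796 and 0.0688 without Id3KO replicates 1, 2 and 3 of stage 2. Over the 6 stage 2 arrays alone it was 0.0896. The probe set 1452174_at stood at 0.02 (95% interval -0.16 to 0.20, limma adjusted p = 0.944) at stage 2 and at 0.13 (-0.09 to 0.35, adjusted p = 0.733) at stage 1, so the probe sets of Srebf2 gave different sizes at stage 2. The probe set 1452174_at was dim too, with intensities of 75.3 to 95.8 over all arrays.

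**Figure D2:**
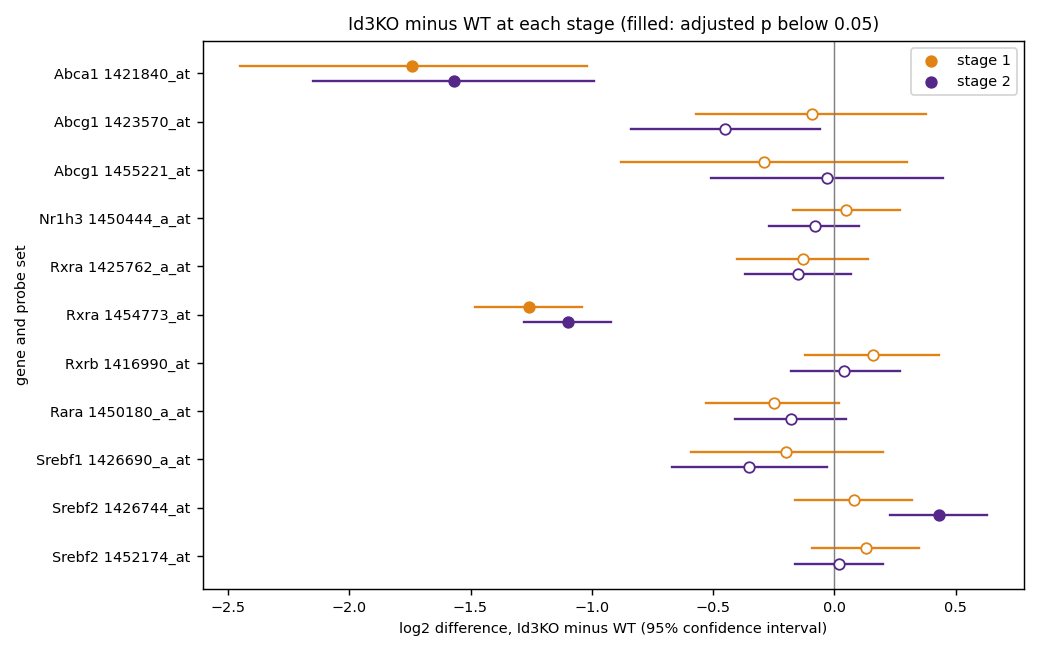
Log2 difference, Id3KO minus WT (horizontal axis), of the 11 kept probe sets (vertical axis) at stage 1 and stage 2, with 95% confidence intervals and filled symbols where the adjusted p is under 0.05. Abca1 at -1.74 and -1.57 and Rxra 1454773_at at -1.26 and -1.10 stand apart from the other 9 probe sets, whose differences lie between -0.45 and 0.43.

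Counted over the set, 2 of the 11 kept probe sets were called lower and 0 higher at stage 1, where limma called 0.343% of all kept probe sets lower and 0.459% higher (0.802% in all). At stage 2, 2 were called lower and 1 higher, where limma called 2.39% of all kept probe sets lower and 1.82% higher (4.21% in all). At stage 1, every Id3KO array lay below every WT array for 4 of the 11 and above for 3, against 22.8% and 18.7% of all kept probe sets (41.5% in all). At stage 2 this held for 3 below and 1 above, against 10.5% and 10.9% (21.4% in all). These counts come from the comparisons with which the genes were chosen, and nothing is read from them. The median log2 difference of the 11 was -0.13 at stage 1 and -0.15 at stage 2, against -0.01 and 0.01 over all kept probe sets. Of the genes with 1 kept probe set, Abca1 alone was called, and Nr1h3, Rxrb, Rara and Srebf1 were not.

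Between the stages, limma called 0 of the 11 probe sets in WT and 0 in Id3KO cells, against 0.016% (0.012% higher, 0.00399% lower) and 0% of all kept probe sets. At an unadjusted p under 0.05 there were 2 in WT cells and 0 in Id3KO cells, against 8.06% and 4.51% of all kept probe sets. In WT cells, Abca1 averaged an intensity of 203 ± 42.4 (SD, n = 3) at stage 2 and 208.5 ± 7.08 (SD, n = 2) at stage 1, a log2 difference of -0.06 (95% interval -0.71 to 0.59). Rxra 1454773_at averaged 211.1 ± 11.7 at stage 2 and 251.3 ± 16.1 at stage 1 in WT cells, and its stage 2 arrays all lay below its stage 1 arrays (log2 -0.25, -0.45 to -0.05, adjusted p = 0.538). Srebf2 1426744_at was likewise lower on every WT stage 2 array (log2 -0.37, -0.60 to -0.15, adjusted p = 0.353). The arrays did not overlap in this direction for 14.4% of all kept probe sets, and in the other for 11.8% (26.2% in all). In Id3KO cells the log2 differences of stage 2 minus stage 1 ran from -0.34 for Abcg1 1423570_at to 0.13 for Rara, and all stage 2 arrays were lower for 2 of the 11, Abcg1 1423570_at and Srebf2 1452174_at, and higher for 0, against 8.91% and 9.45% of all kept probe sets (18.4% in all). For the difference of the genotype effect between the stages, limma called 0 of the 11 and 0% of all probe sets, and 1 of the 11, Srebf2 1426744_at, had an unadjusted p under 0.05, against 7.07% of all.

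The probe sets of other genes with the pattern most like a member's were found by the root mean square distance over the 10 arrays, after each was centred on its mean. For Abca1, whose own spread was 0.87 on this log2 scale, they were Sh3bgrl3, a small protein related to glutaredoxins (distance 0.29), Thy1, a surface glycoprotein of T cells (0.30), and Rora, a nuclear receptor (0.30). Their log2 differences were -1.18, -1.02 and -1.55 at stage 1 and -1.36, -1.39 and -1.7 at stage 2. For Rxra 1454773_at, with a spread of 0.59, they were another probe set of Rora (0.11), Emp1, an epithelial membrane protein (0.14), and Lxn, a carboxypeptidase inhibitor (0.16), with log2 differences of -1.45, -1.29 and -0.88 at stage 1 and -1.16, -1.24 and -1.0 at stage 2. For Srebf2 1426744_at, with a spread of 0.21, they were Nudc (0.06), Mif (0.08) and Cdk2ap1 (0.08). For the other 8 kept probe sets, whose spreads were 0.08 to 0.27, the 3 nearest lay at distances of 0.03 to 0.14 and are not named. These genes are a description of the 10 arrays.

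Related pathway genes were examined in 8 lists of 99 genes, of which 67 had a kept probe set and 129 probe sets were tested. Across the lists, limma called 3 probe sets higher and 0 lower at stage 1, and 7 higher and 3 lower at stage 2. That is to be read against the shares of all kept probe sets given above, and the median log2 difference over the lists was 0.01 at stage 1 and 0.03 at stage 2. With 1 probe set per gene, the stage 2 calls were 2 higher and 3 lower. At an unadjusted p under 0.05 there were 22 of the 129 at each stage, against 10.5% of all kept probe sets at stage 1 and 16.9% at stage 2, and the unadjusted counts of single lists below are to be read against these shares.

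Of 11 other LXR targets, 6 had kept probe sets, 7 in all. At stage 2, 2 were called lower, and at stage 1, 0 were called by limma, with 0 at an unadjusted p under 0.05. Mylip, a ubiquitin ligase that degrades the low-density lipoprotein receptor, had stage 2 intensities of 422, 303 and 382 on the Id3KO arrays, against 551, 697 and 813 on the WT arrays. Lpcat3, which puts polyunsaturated chains into phospholipids, had 320, 244 and 331 on the Id3KO arrays, against 503, 441 and 575 on the WT arrays. In neither gene did the genotypes overlap. Mylip fell by 0.89 ± 0.16 (log2, SE, n = 3 against 3, limma adjusted p = 0.0198) and Lpcat3 by 0.77 ± 0.14 (adjusted p = 0.0165).

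At stage 1 Mylip stood at -0.31 (95% interval -0.76 to 0.15, limma adjusted p = 0.68) and Lpcat3 at -0.27 (-0.64 to 0.11, adjusted p = 0.664). The stage 2 call of Mylip was lost without WT replicate 2 (0.0710) or 3 (0.0700) or Id3KO replicate 2 (0.0562) of stage 2, and that of Lpcat3 without WT replicate 3 (0.0645). Over the 6 stage 2 arrays alone the adjusted p was 0.0609 for Mylip and 0.0588 for Lpcat3. The remaining kept members were not called at stage 2, with log2 differences of -0.30 for Smpdl3a, a phosphodiesterase, -0.06 for Abcg8, a sterol exporter, 0.22 for Apoe, an apolipoprotein, and 0.13 and 0.24 for the probe sets of Pltp, a phospholipid transfer protein. The list median was -0.06 at stage 2 and -0.02 at stage 1.

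Of 23 SREBP2 targets of cholesterol synthesis and uptake, 18 had kept probe sets, 34 in all. 1 was called higher at stage 2, and limma called 0 at stage 1, where 4 of 34 had an unadjusted p under 0.05, against 10.5% of all kept probe sets. The called one was 1422533_at of Cyp51, the lanosterol demethylase, with 95.2, 87.1 and 103 on the Id3KO arrays, against 54.9, 51.8 and 57.4 on the WT arrays. Id3KO arrays were all higher, and the log2 difference was 0.80 ± 0.17 (SE, limma adjusted p = 0.0379), from a WT mean of 5.77, which is below the filter level of 5.78. That call was lost without any 1 of the 6 stage 2 arrays, with an adjusted p of 0.0927, 0.119 and 0.102 without WT replicates 1, 2 and 3 and of 0.0922, 0.0723 and 0.0971 without Id3KO replicates 1, 2 and 3. It was also lost with no filter (0.0639). The second Cyp51 probe set, 1450646_at, stood at 0.51 (0.14 to 0.89, adjusted p = 0.144). The list median was 0.07 at stage 2 and -0.00 at stage 1.

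The 5 SREBP processing genes, which hold the SREBPs in the endoplasmic reticulum or cleave them, had 10 kept probe sets, of which limma called 0 at either stage, with 1 at stage 1 and 2 at stage 2 at an unadjusted p under 0.05 (10.5% and 16.9% of all kept probe sets). Insig1, which retains the SREBP complex, stood at 0.63 (95% interval 0.19 to 1.07, adjusted p = 0.263) at stage 1 and 0.55 (0.19 to 0.91, adjusted p = 0.103) at stage 2.

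Among 10 SREBP1 targets of fatty acid synthesis, 8 had kept probe sets, 16 in all, and the called ones were all of Acly, the ATP citrate lyase that makes cytosolic acetyl-CoA for sterols and fatty acids. Its brightest, 1439459_x_at, had 4355 and 4358 on the Id3KO stage 1 arrays, against 2273 and 2479 on the WT arrays. At stage 2 it had 4308, 3956 and 4318 on the Id3KO arrays, against 2367, 2287 and 2389 on the WT arrays. No Id3KO array overlapped a WT array at either stage. Acly rose by 0.88 ± 0.09 at stage 1 (log2, SE, n = 2 against 2, limma adjusted p = 0.00437) and by 0.84 ± 0.07 at stage 2 (n = 3 against 3, adjusted p = 0.000571).

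Acly 1451666_at rose by 1.15 ± 0.15 (log2, SE, limma adjusted p = 0.0131) at stage 1 and 1.17 ± 0.12 (adjusted p = 0.00154) at stage 2. Acly 1425326_at stood at 0.31 (adjusted p = 0.281) at stage 1 and rose by 0.66 ± 0.08 (adjusted p = 0.00301) at stage 2. It was dim, with 61.5, 60.7 and 60.1 on the WT stage 2 arrays, within the 54.2 to 69.8 that Id3 read on the Id3KO stage 2 arrays. The dimmest, 1446315_at, was not called (0.36 and 0.09). The stage 2 calls held in every other fit in which the probe set was tested. At stage 1, that of 1439459_x_at was lost without WT replicate 1 (0.0626) and over the 4 stage 1 arrays alone (0.0970). That of 1451666_at was lost without WT replicate 1 (0.103), WT replicate 2 (0.102), Id3KO replicate 1 (0.0582) or Id3KO replicate 2 (0.0808) of stage 1, and over those 4 arrays alone (0.0760).

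Of 16 genes of cholesterol transport, esterification and oxysterols, 11 had kept probe sets, 18 in all. Abca7, a lipid transporter related to Abca1, was called higher at stage 1, with 468 and 421 on the Id3KO arrays, against 259 and 298 on the WT arrays (log2 0.67 ± 0.11, SE, limma adjusted p = 0.0362). That call was lost in 11 other fits, with the adjusted p at 0.254 and 0.102 without WT replicates 1 and 2 and 0.218 and 0.0933 without Id3KO replicates 1 and 2 of stage 1. It was 0.0587 and 0.0697 without WT replicates 2 and 3 and 0.0599 and 0.0513 without Id3KO replicates 1 and 3 of stage 2, 0.109 with the replicate number as a block and 0.175 over the stage 1 arrays alone. At stage 2 Abca7 stood at 0.21 (adjusted p = 0.296), and limma called 0 of this list, with 2 at an unadjusted p under 0.05.

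Of 10 other RXR and RAR receptors and RXR partners, 4 had kept probe sets, 8 in all. Rarg, the retinoic acid receptor gamma, had 1419415_a_at intensities at stage 2 of 166, 181 and 162 on the Id3KO arrays, against 240, 260 and 318 on the WT arrays. At stage 1 they were 160 and 173 on the Id3KO arrays, against 250 and 258 on the WT arrays. All Id3KO arrays were lower than all WT arrays. It fell by 0.67 ± 0.11 at stage 2 (log2, SE, n = 3 against 3, limma adjusted p = 0.0110), a call that held in all 20 other fits. At stage 1 it stood at -0.61 (95% interval -0.91 to -0.31, adjusted p = 0.0933), and its second probe set, 1419416_a_at, was at -0.05 at stage 1 and -0.09 at stage 2. The probe sets of Vdr, the vitamin D receptor, stood at -0.70 (adjusted p = 0.361) and -0.71 (adjusted p = 0.264) at stage 1 and at -0.28 and -0.06 at stage 2, none of them called.

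The 9 coregulators had 21 kept probe sets of 7 genes, and limma called 0 at either stage, with 4 of 21 at stage 1 and 2 of 21 at stage 2 at an unadjusted p under 0.05 (10.5% and 16.9% of all kept probe sets). The largest of the list at stage 1 was that of Nrip1 1454295_at, a corepressor of nuclear receptors, at 1.11 (95% interval 0.42 to 1.81, adjusted p = 0.196) at stage 1 and 0.54 (adjusted p = 0.327) at stage 2.

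Of 15 genes of retinoid metabolism and RAR targets, 8 had kept probe sets, 15 in all, and the called ones were all of Ccr9, a gut and thymus homing receptor that retinoic acid induces in T cells. Its brightest probe set, 1427419_x_at, had stage 2 intensities of 2759, 2536 and 2637 on the Id3KO arrays, against 911, 864 and 936 on the WT arrays. At stage 1 it had 2560 and 2837 on the Id3KO arrays, against 2264 and 1811 on the WT arrays. WT stage 2 cells were the group that stood apart. Ccr9 rose by 1.55 ± 0.10 at stage 2 (log2, SE, n = 3 against 3, limma adjusted p = 0.000211), and 1421920_a_at (1.58) and 1421919_a_at (0.98) were also called there, all 3 in every other fit in which they were tested. The WT stage 2 arrays read 54.9, 48.7 and 44.4 on 1421919_a_at, below the filter level of 55.1. Its difference is thus from readings below that level.

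At stage 1 the log2 differences of these Ccr9 probe sets were 0.41, 0.49 and 0.61, and none was called (limma adjusted p = 0.215, 0.283 and 0.195). Between the stages in WT cells, 1427419_x_at fell by 1.16 ± 0.11 (log2, SE, limma adjusted p = 0.0178), the only probe set of the 129 that was called between stages. That call was lost in 8 other fits, with the adjusted p at 0.124 and 0.0505 without WT replicates 1 and 2 of stage 1, 0.0502 and 0.0667 without WT replicates 2 and 3 of stage 2, 0.0521 without either Id3KO stage 1 array, 0.105 with the replicate number as a block and 0.191 over the WT arrays alone. The other Ccr9 probe sets, 1442758_at (0.49, adjusted p = 0.0697) and 1436065_at (0.25, adjusted p = 0.539), were not called at stage 2.

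**Figure D3:**
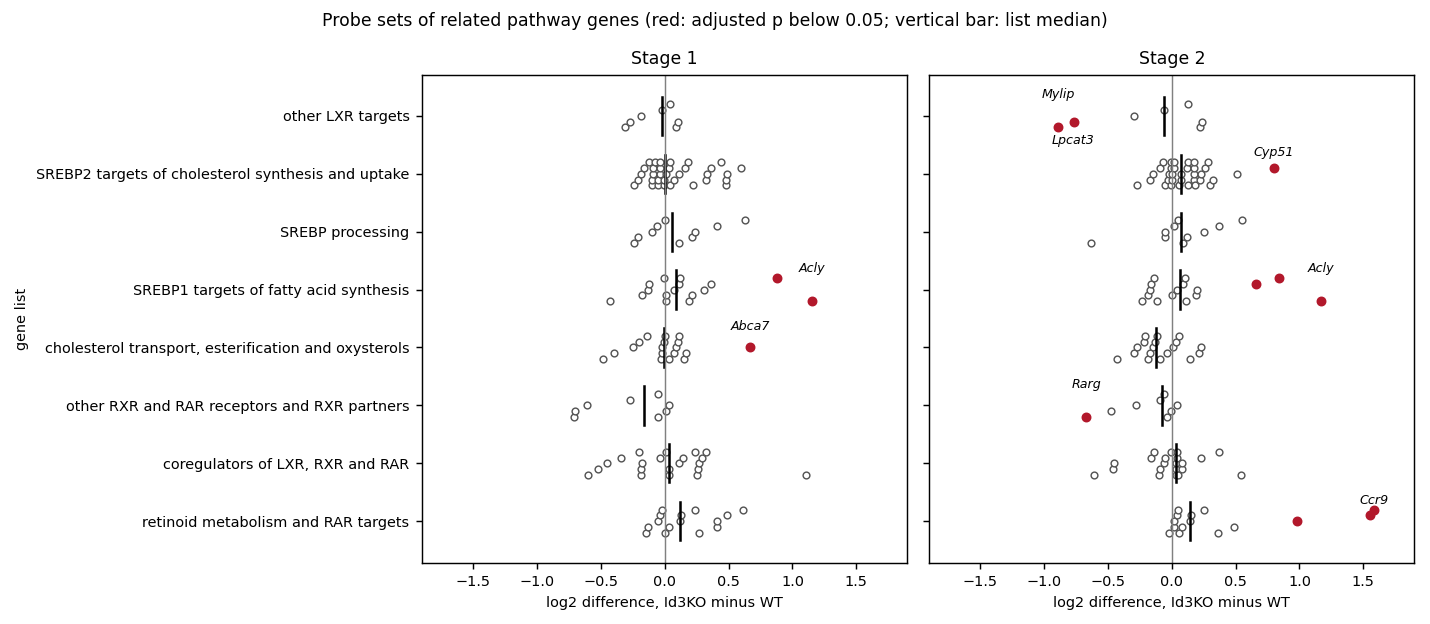
Log2 difference, Id3KO minus WT (horizontal axis), of every kept probe set in the 8 pathway lists (vertical axis) at stage 1 (left) and stage 2 (right), with called probe sets in red and the list median as a bar. List medians lie between -0.16 and 0.14, and the called probe sets are those of Acly and Abca7 at stage 1 and of Mylip, Lpcat3, Cyp51, Acly, Rarg and Ccr9 at stage 2.

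**Figure D4:**
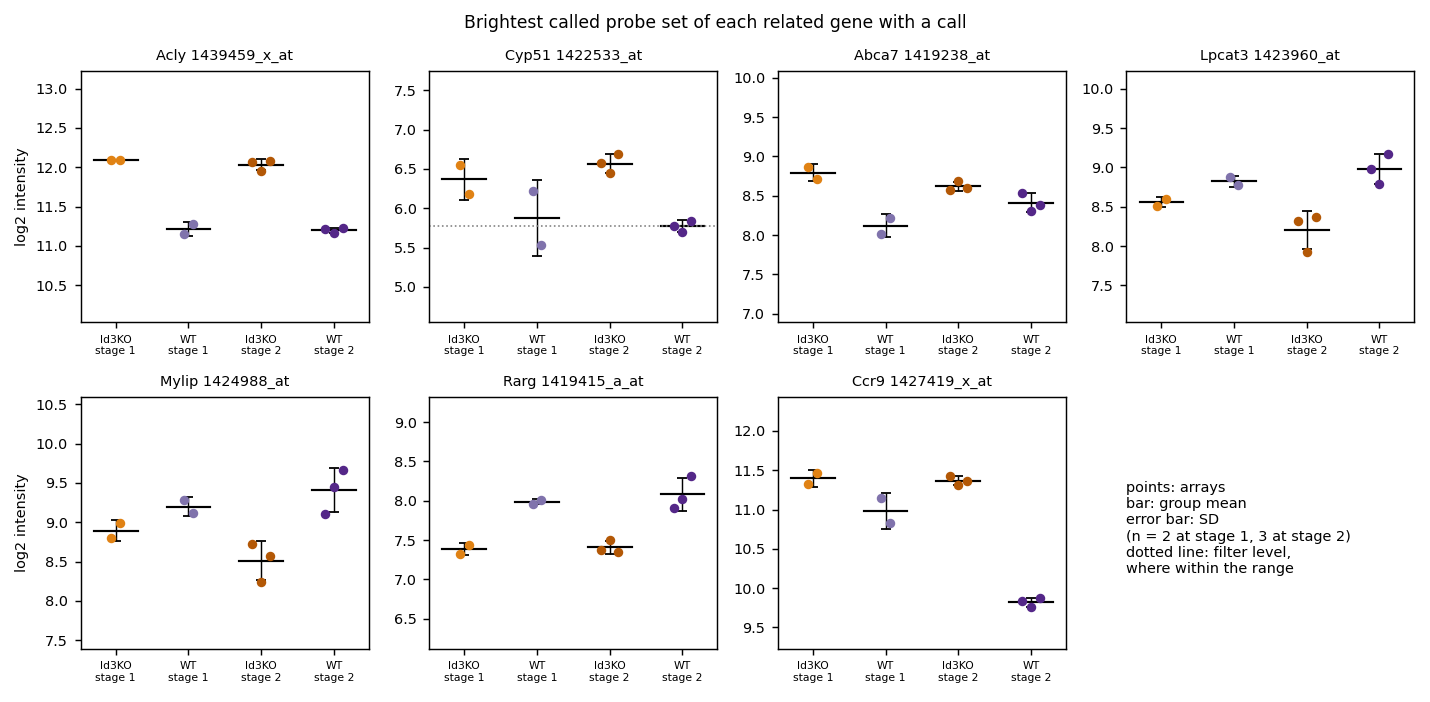
Log2 intensity (vertical axis) of the brightest called probe set of each called pathway gene in the 4 groups (horizontal axis); points are arrays and bars are group means with the SD. For Acly the 5 Id3KO points lie above every WT point, for Rarg they lie below, and Ccr9 is lowest in WT stage 2 cells.

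Of the iNKT subset markers, limma called 7 of 7 NKT17 and 5 of 6 NKT1 markers lower in Id3KO cells at stage 2. It called 0 of either list at stage 1, where the smallest adjusted p was 0.139 (Cxcr3). Of all kept probe sets, limma called 2.39% lower at stage 2 and 0.343% at stage 1. Ifng, among the 5 NKT1 calls, was above the filter level on only 3 arrays. It averaged 5.51 in Id3KO and 6.20 in WT cells at stage 2 (log2), so its difference is from readings below that level. Ccr6 averaged 5.87 in Id3KO cells at stage 2, near that level. Klrd1, an NKT1 marker, stood at 0.52 at stage 1 (log2, adjusted p = 0.583). The 7 measured NKT17 markers, all kept of 9 listed, had summed intensities of 516 to 561 on Id3KO and 706 to 947 on WT arrays at stage 1, and of 492 to 703 on Id3KO and 2443 to 4163 on WT arrays at stage 2. The 6 NKT1 markers summed to 900 to 1413 on Id3KO and 1601 to 1618 on WT arrays at stage 1, and to 1051 to 1357 on Id3KO and 3245 to 3443 on WT arrays at stage 2. The 5 NKT2 markers summed to 6295 to 6627 on Id3KO and 5906 to 6484 on WT arrays at stage 1, and to 5848 to 6635 on Id3KO and 5408 to 5667 on WT arrays at stage 2. The NKT2 sum is carried by its brightest members, Plac8 and Il17rb. Il13, the dimmest, fell by 0.98 at stage 1 (log2, limma adjusted p = 0.024) and by 0.58 at stage 2 (adjusted p = 0.0327). Plac8 rose by 0.52 at stage 2 (adjusted p = 0.0119), and Il4, Gata3 and Il17rb were called at neither stage. The part of subset mix in the differences of Abca1, Rxra and the other genes was not tested.

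Myeloid cells express Abca1 and Nr1h3, and of their 11 markers 6 were kept, while Adgre1, Itgam, Itgax and Xcr1 were above the filter level on 0 arrays. Their summed intensity was 566 to 574 on Id3KO and 568 to 583 on WT arrays at stage 1, and 568 to 589 on Id3KO and 568 to 576 on WT arrays at stage 2. The sums of B cell markers were 201 to 214 on Id3KO and 209 to 224 on WT arrays at stage 1 and 199 to 211 on Id3KO and 207 to 240 on WT arrays at stage 2. Of 6 markers of double-positive thymocytes, Rag1, Rag2, Dntt, Ptcra and Cd8b1 were above the filter level on 0 arrays. Sums of the thymic epithelial list lay between 283 and 310 and those of the erythroid list between 148 and 155 over all arrays. The sums in this paragraph are mostly of readings near or below the filter level, which limits what a difference could show. Csf1r, the brightest myeloid marker, averaged only 6.18 to 6.26 in the groups (log2 intensity).

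**Figure D5:**
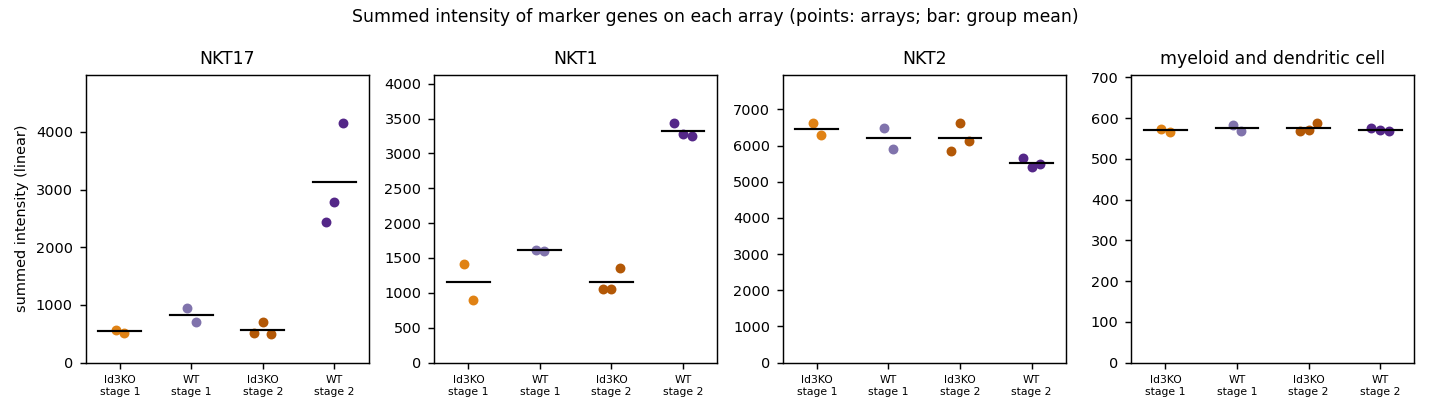
Summed linear intensity (vertical axis, from 0) of the brightest probe set of each NKT17, NKT1, NKT2 and myeloid or dendritic cell marker on every array of the 4 groups (horizontal axis), with the group mean as a bar. NKT17 and NKT1 sums are highest in WT stage 2 cells, and the myeloid sum lies between 566 and 589 on all arrays.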

How the data were processed

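Labelled RNA of sorted iNKT cells was measured on 10 Affymetrix arrays, and RNA was amplified in a two-cycle protocol per the labels. The deposited values are intensities per probe set on a linear scale. Per the submitters' processing notes, the authors made them with RMA. They ran from 29 to 15399. RMA shrinks differences of dim probe sets. Depth is no count here, so no counting interval was computed, and the number of arrays limits the precision.

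Groups and replicate numbers were copied from the titles. Log2 was taken, 25061 of 45037 probe sets were kept (20942 with 1 gene, 593 with several, 3526 with none in the platform annotation), and limma 3.58.1 in R 4.3.3 fitted 1 mean per group (6 residual and 2.80 prior degrees of freedom), with two-sided tests of 5 contrasts, each adjusted by Benjamini and Hochberg over all kept probe sets. Intervals are 95% intervals of that fit. The fit was tested on simulated data. Named are all members, the called probe sets of the 8 lists with examples of uncalled members, and, of the 3 nearest genes ranked for every kept member probe set, those of the 3 called ones. Lists were matched through gene IDs of a RefSeq table (GRCm38.p6). Members and lists were chosen with earlier results of these data known. Same-numbered arrays deviated together with correlations of -0.188 to 0.133 between groups, so the numbers were not taken to pair them. Other fits left out 1 array each, dropped the filter or raised it to log2 6.5, normalized again by quantiles, centred arrays, weighted them, used a trended robust prior, took only the groups compared, kept 1 probe set per gene, or blocked on the replicate number. No batch is named in the labels.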

Additional observations from a re-analysis of the deposited data

How the results depend on the processing

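No difference that was called changed sign in the 20 other fits. Of the 2 genes called at stage 1, 1 was called with no filter, after further quantile normalization, with each array centred on its median, over only the arrays compared, and with the replicate number as a block; 1 to 2 were called when an array was left out. At stage 2, 1 in place of 3 was called over only the arrays compared, and 2 to 3 when an array was left out. Of the pathway probe sets, 0 in place of 3 were called at stage 1 over only the arrays compared (0 to 3 with an array left out), and 5 in place of 10 at stage 2 with 1 probe set per gene (7 to 11 with an array left out). With 1 probe set per gene the stage 2 split was 2 higher and 3 lower, against 7 higher and 3 lower with all probe sets, where Acly and Ccr9 have 3 called probe sets each. Between WT stages, 2 in place of 1 were called with array weights, 0 over only the arrays compared and 0 with the replicate block (0 to 2 with an array left out). Some of these fits hold fewer arrays or probe sets, and the cause of the changes was not tested. The replicate block left 3 members called at stage 2, 2 pathway probe sets at stage 1 and 10 at stage 2. Crossing the Id3KO stage 1 numbers, an alternative chosen after seeing the data because same-numbered stage 1 arrays correlated at -0.135, gave 1 member at stage 1, 4 at stage 2 with Abcg1 1423570_at among them, and 2 and 10 pathway probe sets. The difference between the stages uses all 10 arrays and has no fit over fewer. With 2 or 3 arrays a group, planted log2 differences of 1 were recovered in 70% of simulated probe sets at stage 1 and 82% at stage 2. Of the calls in the simulated data, 4.57% were false at stage 1 and 7.18% at stage 2. Only rises were planted, with normal noise, so recovery of falls on dim probe sets was not tested. Dim probe sets near the filter level, such as those of Nr1h3 and Rara, bound what a difference can show.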
